A study of Mus musculus with 6 samples.

Results

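Chemokine receptors tell a T cell where to go. They are 7-transmembrane receptors coupled to inhibitory G proteins, and a cell that carries one moves along a gradient of the matching chemokine, or arrests on endothelium that displays it. The 9 receptors described here are Ccr2, Ccr4, Ccr7, Ccr8, Ccr9, Cxcr3, Cxcr4, Cxcr5 and Cxcr6, taken as the probe sets that name exactly 1 of these symbols in the array's probe table. Each of the 9 had 1 such probe set, and together they make up 9 of the 19938 genes measured. All values are transcript levels, so receptor protein on the cell surface was not measured.

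The RNA came from splenic T cells of 6 B6D2F1/J mice, an F1 hybrid of a B6 and a DBA/2 parent, with 1 whole-transcript array per mouse. All 6 were transplanted after lethal irradiation with B6 bone marrow depleted of T cells, a parent-into-F1 transplant in which donor T cells can attack the host. Spleen cells of B6 origin were added to the graft in part of the protocol, and no label says for which of these mice. Of these mice 3 received PBS and 3 received rapamycin, an inhibitor of the kinase mTOR, at 1.5 mg/kg into the peritoneum every other day until day 10, when CD3-positive spleen cells were sorted. The sources used here give neither age nor sex. Sorted cells from an irradiated, transplanted spleen may come from donor or host, and the array does not separate them.

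Levels are on the log2 scale, where 1 unit is a factor of 2. Each difference is the rapamycin mean less the PBS mean. A probe set's level depends on its probes as well as on its transcript, so levels of different receptors are not ranked against each other. The sorted cells carried the T cell receptor complex: Cd3e measured 12.87 ± 0.05 with PBS and 12.84 ± 0.08 with rapamycin (SD, n = 3 each), where array medians lay between 6.03 and 6.17. Genes of other cells were also measured in every sample. The mean of 10 neutrophil genes was 9.86, 9.49 and 8.28 in PBS replicates 1, 2 and 3. In rapamycin replicates 1, 2 and 3 it was 10.34, 8.98 and 9.57. All 10 genes were higher with rapamycin on average, but without PBS replicate 3 the list mean was not higher. For 9 monocyte and macrophage genes (7 higher) the means were 9.60, 9.20 and 9.56 with PBS and 9.07, 9.62 and 10.13 with rapamycin. Without rapamycin replicate 3 that list mean was not higher with rapamycin either. For 9 B cell genes (4 higher) the means lay between 5.48 and 5.58 with PBS and between 5.41 and 5.50 with rapamycin. Lists of dendritic, plasma and NK cell genes had median differences of -0.07, 0.0083 and -0.05, and their genes with the highest level, Itgax, Xbp1 and Gzma, are also expressed by activated T cells. No gene of these 6 lists passed the test, an array has no true zero, and the part of these cells in the results below was not tested.

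None of the 9 receptors passed the test across all genes. The call rule, an adjusted p under 0.05 in limma's moderated test with Benjamini-Hochberg adjustment over 19938 genes, was met by 1 gene, or 0.00502% of those tested, and it was not a chemokine receptor. The smallest adjusted p among the 9 was 0.970, for Cxcr5. At an unadjusted p under 0.05 stood Cxcr5 (0.0104) and Cxcr3 (0.0183), both lower with rapamycin, which is 2 of 9 where 4.67% of all genes reached that level and 3.07% reached it on the lower side. Of the 9 differences 6 were negative, against 55.3% of all genes, and their median was -0.06, against -0.01 over all genes. With array weights or with arrays centred on their medians 5 were negative, and without rapamycin replicate 1 their median was 0.07. The other 7 receptors differed by less than 0.2 in either direction. In a sorted bulk sample, fewer cells of a subset and less RNA per cell cannot be told apart.

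**Figure D1:**
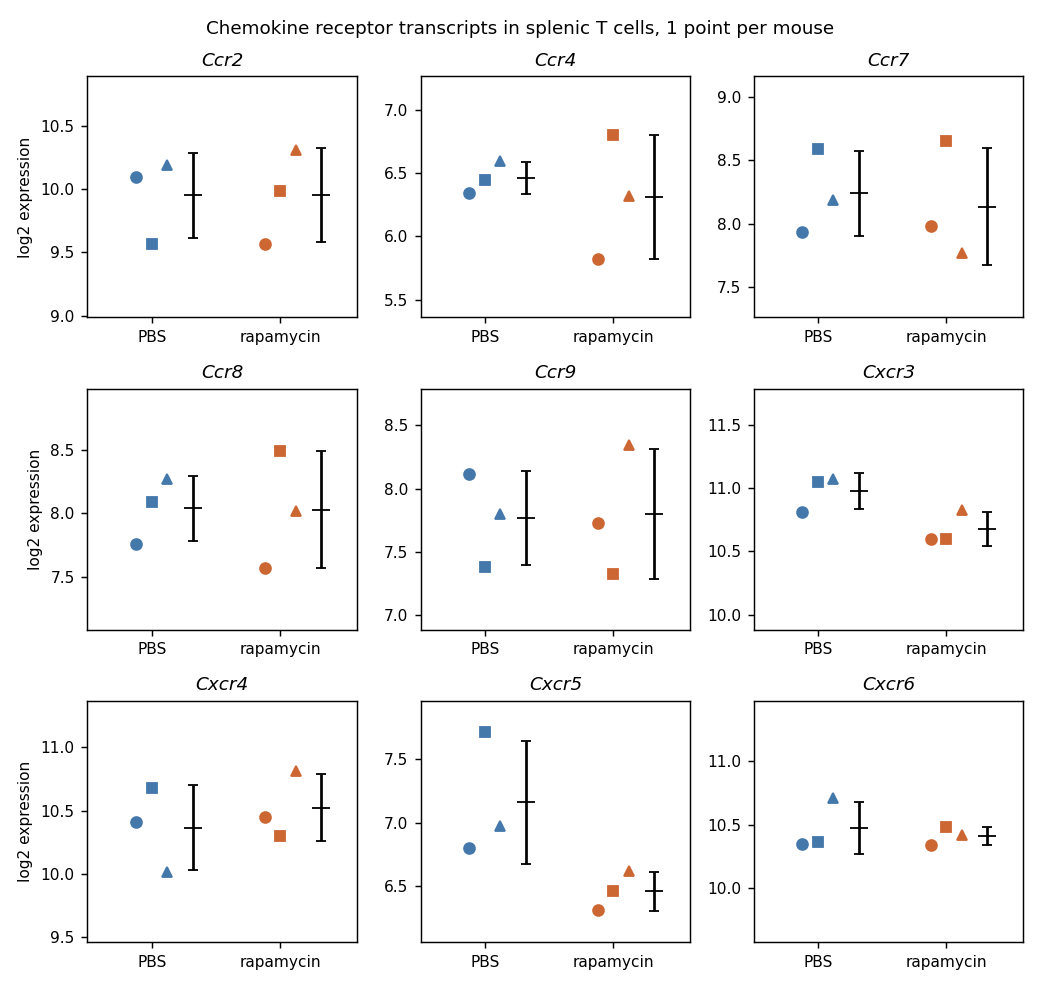
Log2 expression of the 9 receptors, 1 panel per gene with the same span of the vertical axis, in the 3 PBS mice (blue) and the 3 rapamycin mice (orange); circles, squares and triangles are replicates 1, 2 and 3 of a group, which are different mice, and black bars are the mean ± SD. The groups overlap in 8 panels, and for Cxcr5 the highest rapamycin mouse, at 6.62, lies below the lowest PBS mouse, at 6.80.

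The first group of receptors places lymphocytes inside lymphoid organs. Cxcr5, the receptor for Cxcl13 that brings follicular helper T cells and B cells into follicles, had the largest difference of the 9. Its level was 6.80, 7.71 and 6.98 in PBS replicates 1, 2 and 3, and 6.31, 6.46 and 6.62 in rapamycin replicates 1, 2 and 3. The 3 rapamycin mice all lay below the 3 PBS mice. The rapamycin levels were close to the median level over all genes, 6.37. Whether compression of values near background had a part was not tested. Groups without overlap were found for 9.42% of all genes and, in the lower direction, for 6.28%. The means were 7.16 ± 0.49 and 6.46 ± 0.15 (SD, n = 3 each), a 1.63-fold lower level, with a difference of -0.70 (SE 0.21, 95% interval -1.19 to -0.21, adjusted p = 0.970 in limma's moderated test). An exact two-sided permutation test over the 6 mice gave p = 0.1, the smallest value that 3 against 3 allows. PBS replicate 2 stood well above the other PBS mice, and without it the difference was -0.43 and the limma p before adjustment 0.0083. Over 13 other settings the adjusted p of Cxcr5 was 0.598 or more.

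Genes that mark the cells known to carry Cxcr5 are given beside it. Bcl6, the transcription factor of follicular helper T cells, measured 7.51, 7.64 and 7.52 with PBS and 7.54, 7.91 and 7.72 with rapamycin, so its difference of 0.16 (SE 0.10) had the opposite sign (0.073 without rapamycin replicate 2). Among 9 B cell markers the differences ran from -0.54 to 0.06 with a median of -0.03, and the extreme was Cd79b, a subunit of the B cell receptor. Cd79b measured 7.56, 7.16 and 7.44 with PBS and 6.84, 6.89 and 6.80 with rapamycin. Groups did not overlap for Cd79b (adjusted p = 0.747 in limma's moderated test), which was picked out here after its values were seen. Cd22, another B cell receptor-associated protein, differed by 0.0081. Whether B cells in the sort had a part in the Cxcr5 values was not tested.

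Ccr7, the receptor for Ccl19 and Ccl21 that brings naive and central memory T cells into the T cell zone, measured 7.93, 8.59 and 8.19 with PBS and 7.98, 8.65 and 7.77 with rapamycin. Replicate 2 was the highest mouse of each group, and the groups overlapped over nearly their whole range. The difference was -0.10 (SE 0.24), and its 95% interval of -0.64 to 0.44 includes levels 0.640-fold to 1.35-fold those of PBS. Cxcr4, the receptor for Cxcl12 that holds cells in bone marrow and in stromal niches, had the largest positive difference of the 9 with all mice included, which was -0.020 without PBS replicate 3. It measured 10.41, 10.68 and 10.02 with PBS and 10.45, 10.30 and 10.81 with rapamycin (difference 0.16, SE 0.18, 95% interval -0.26 to 0.57). PBS replicate 3 was the lowest of the 6 mice and rapamycin replicate 3 the highest, and the groups overlapped. Klf2, a transcription factor of quiescent, recirculating T cells, was the partner gene fixed for Cxcr4, and it measured 10.01 ± 0.15 with PBS and 9.73 ± 0.19 with rapamycin (difference -0.29, SE 0.12, limma p before adjustment 0.0392).

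The second group brings effector cells into inflamed tissue. Cxcr3, carried by type 1 helper and cytotoxic effector T cells and bound by the interferon-induced chemokines Cxcl9, Cxcl10 and Cxcl11, measured 10.81, 11.05 and 11.07 with PBS and 10.59, 10.60 and 10.83 with rapamycin. The groups met only at their edges, since rapamycin replicate 3 lay just above PBS replicate 1. The means were 10.98 ± 0.14 and 10.67 ± 0.13 (SD, n = 3 each), a 1.23-fold lower level, with a difference of -0.30 (SE 0.10, 95% interval -0.54 to -0.07, adjusted p = 0.982 in limma's moderated test, exact two-sided permutation p = 0.2). Tbx21, which encodes T-bet, a factor that switches on Cxcr3, measured 9.58 ± 0.04 with PBS and 9.50 ± 0.14 with rapamycin (difference -0.08, SE 0.09). The within-group SD of Cxcr3 was 0.14, against 0.36 for Cxcr5 and a median of 0.12 over all genes.

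The stretch before the Cxcr3 start site is shown because Cxcr3 is the one with less spread of the 2 receptors at an unadjusted p under 0.05 and T-bet is known to act on this gene. It is the 250 bases upstream of the RefSeq start at chrX:101734148-101734397, minus strand, build GRCm38.p6, written 5′ to 3′.
Cxcr3: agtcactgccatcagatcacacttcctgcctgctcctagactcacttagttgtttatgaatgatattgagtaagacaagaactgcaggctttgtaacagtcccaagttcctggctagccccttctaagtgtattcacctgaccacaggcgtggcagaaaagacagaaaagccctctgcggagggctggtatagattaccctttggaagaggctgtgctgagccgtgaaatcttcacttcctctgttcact
Letters searched on both strands were TCACACC (T-box), CACCC (KLF) and GTAAACA (FOXO), and a match would be in capitals. The Cxcr3 window held none of the 3. CANNTG (E-box) was also searched and is not in capitals, and the window held 1 match, 116 bases before the start. Among 32851 RefSeq windows of the same length, 3.33% held TCACACC, 52.0% CACCC, 3.17% GTAAACA and 66.2% CANNTG. A match describes letters only, and its absence says only that these letters are not in this window.

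Cxcr6, the receptor for Cxcl16 on tissue-resident and effector T cells, measured 10.35, 10.36 and 10.71 with PBS and 10.34, 10.48 and 10.42 with rapamycin. PBS replicate 3 was the highest and the other 5 mice lay close together. Its difference of -0.06 (SE 0.11) had the narrowest interval of the receptors not at an unadjusted p under 0.05, -0.31 to 0.19, or 0.804-fold to 1.14-fold. Itga1, the collagen-binding integrin chain that Cxcr6-positive resident cells often carry, measured 8.45, 8.15 and 8.53 with PBS and 7.92, 7.49 and 7.90 with rapamycin (difference -0.61, SE 0.14, adjusted p = 0.814 in limma's moderated test). The Itga1 groups did not overlap, while those of Cxcr6 did.

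Ccr2, the receptor for Ccl2 on effector T cells and on inflammatory monocytes, measured 10.10, 9.57 and 10.19 with PBS and 9.57, 9.98 and 10.31 with rapamycin. The lowest mouse of each group stood at 9.57, and the group means differed by 0.0015 (SE 0.21, 95% interval -0.48 to 0.48). Across the 6 mice Ccr2 went up and down with the mean of 9 monocyte and macrophage markers, with Pearson r = 0.91, r = 0.94 after each group's mean was removed, and r = 0.91 over the 4 mice left without the 2 with the most extreme marker means. The 6 arrays were normalized together, and this is a description with no test. Lyz2, the lysozyme of myeloid cells and the marker of that list with the highest level, measured 12.21 ± 0.09 with PBS and 12.49 ± 0.21 with rapamycin. Its mean was 0.29 higher with rapamycin, or 0.18 without rapamycin replicate 3.

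The third group is linked to skin, regulatory T cells and gut. Ccr4, the receptor for Ccl17 and Ccl22 on type 2 helper, skin-homing and regulatory T cells, measured 6.35, 6.44 and 6.60 with PBS and 5.82, 6.80 and 6.32 with rapamycin. Rapamycin replicates 1 and 2 were the lowest and the highest of all 6 mice, and the PBS mice lay between them. Rapamycin replicate 1 also lay below the array medians, 6.03 to 6.17. The difference was -0.15 (SE 0.21, 95% interval -0.63 to 0.34). Gata3, the factor of type 2 helper cells, differed by -0.12 (SE 0.09), and by -0.039 without rapamycin replicate 3.

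Ccr8, the receptor for Ccl1 on regulatory and skin-resident T cells, measured 7.76, 8.09 and 8.27 with PBS and 7.57, 8.49 and 8.02 with rapamycin (difference -0.01, SE 0.22, 95% interval -0.51 to 0.49, and positive with array weights or median centring). Here too rapamycin replicate 1 was the lowest mouse and rapamycin replicate 2 the highest. Foxp3, the factor that defines regulatory T cells, measured 8.90, 9.11 and 9.55 with PBS and 8.77, 9.14 and 8.74 with rapamycin (difference -0.30, SE 0.17, and -0.12 without PBS replicate 3), and the groups overlapped. Ccr9, the receptor for Ccl25 that leads T cells to the small intestine, measured 8.12, 7.38 and 7.80 with PBS and 7.73, 7.33 and 8.35 with rapamycin. Its difference was 0.04 (SE 0.26, 95% interval -0.56 to 0.63), the widest interval of the 9, with replicate 2 the lowest mouse of each group. Itgb7, the integrin chain that pairs with alpha 4 for entry into gut, differed by -0.15 (SE 0.08), and by -0.10 without rapamycin replicate 2.

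**Figure D2:**
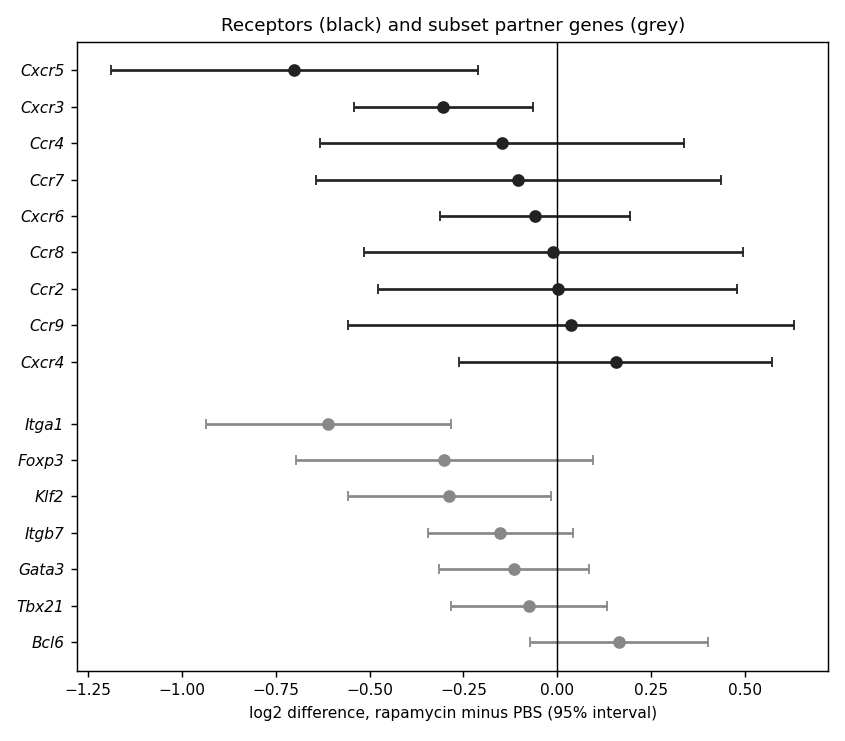
Log2 difference, rapamycin minus PBS, with its 95% interval from limma, for the 9 receptors (black) and the 7 partner genes that were measured (grey), each sorted by difference. The intervals of Cxcr5 and Cxcr3 lie below 0 before adjustment over all genes, those of the other 7 receptors include 0, and Bcl6 lies at 0.16 while Cxcr5 lies at -0.70.

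The receptors varied more between mice of one group than most genes did. The within-group SD had a median of 0.36 over the 9 receptors and of 0.12 over all genes. It lay above the 95th percentile of all genes, 0.27, for 7 of the 9, where 5% of all genes do so by construction. Cxcr3 and Cxcr6 were the exceptions, at 0.14 and 0.15. The median SE of a difference was accordingly 0.21 for the receptors and 0.0955 for all genes. The wide spread was not particular to these 9. All neutrophil markers lay above 0.27, from 0.43 for Lcn2 to 1.58 for Retnlg. So did all monocyte and macrophage markers measured except Lyz2 (0.16). Of the other chemokine receptors measured, Ccr1, Ccr3, Ccr6, Cxcr2 and Ccrl2 lay above it and the rest below. Of the T cell markers only Cd4 lay above it, at 0.34. These are counts with no test, and the 95th percentile was chosen after the values were seen.

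**Figure D3:**
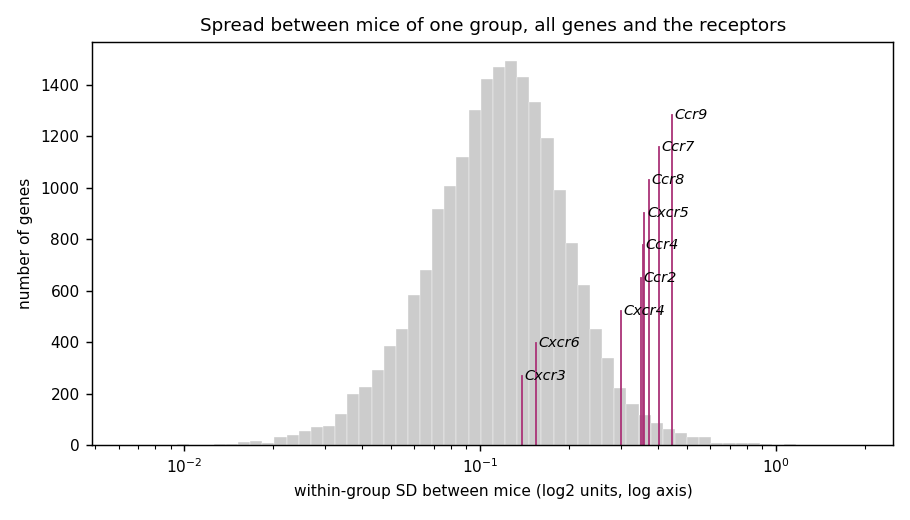
Histogram of the within-group SD between mice (log2 units, on a log axis) over 19938 genes, with the 9 receptors as labelled vertical lines whose heights only separate the labels. Cxcr3 at 0.14 and Cxcr6 at 0.15 lie within the bulk of genes, and the other 7 lie between 0.30 and 0.45 in the right tail.

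Some receptors varied together from mouse to mouse. Of the 36 receptor pairs, Ccr4 and Ccr8 had the highest correlation over the 6 mice, r = 0.94 (0.96 with group means removed, 0.81 over the 4 mice left without the 2 most extreme), and Ccr7 and Ccr9 the lowest, r = -0.94 (-0.95 and -0.88 in the same order). The median of the 36 was 0.16. With so few mice, sharing arrays normalized together, these are descriptions with no test. Ccl1, the ligand of Ccr8 that activated T cells make, had its lowest level in rapamycin replicate 1, at 8.57, and its highest in rapamycin replicate 2, at 9.60, the same mice as for Ccr8, and correlated with Ccr8 at r = 0.85, which was 0.44 over the 4 mice left without the 2 most extreme in Ccl1.

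The same mice also differed in the genes of T cells and neutrophils. Ccr8 followed the mean of 11 T cell markers at r = 0.93 and ran against the mean of 10 neutrophil markers at r = -0.85, and Ccr4 did so at r = 0.85 and r = -0.82. Cxcr6 stood at r = 0.86 with the T cell markers, which was 0.55 without the 2 most extreme mice, and at r = -0.92 with the neutrophil markers (-0.88 without the 2 most extreme). Rapamycin replicate 1, the mouse lowest in Ccr4, Ccr8 and Cxcr6, had the highest neutrophil list mean, 10.34, and the lowest T cell list mean, 11.09. PBS replicate 3, the highest in Cxcr6, had the lowest neutrophil mean, 8.28, and the highest T cell mean, 11.34. Cxcr5 stood at r = 0.62 with the B cell markers, and at 0.23 once group means were removed. Cxcr3 stood at r = 0.82 with the mean of 10 dendritic cell markers (0.58 with group means removed, 0.83 without the 2 most extreme mice), a mean that lay between 6.05 and 6.13 in PBS mice and between 5.94 and 6.04 in rapamycin mice. The part of these differences between samples in the receptor values was not tested.

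**Figure D4:**
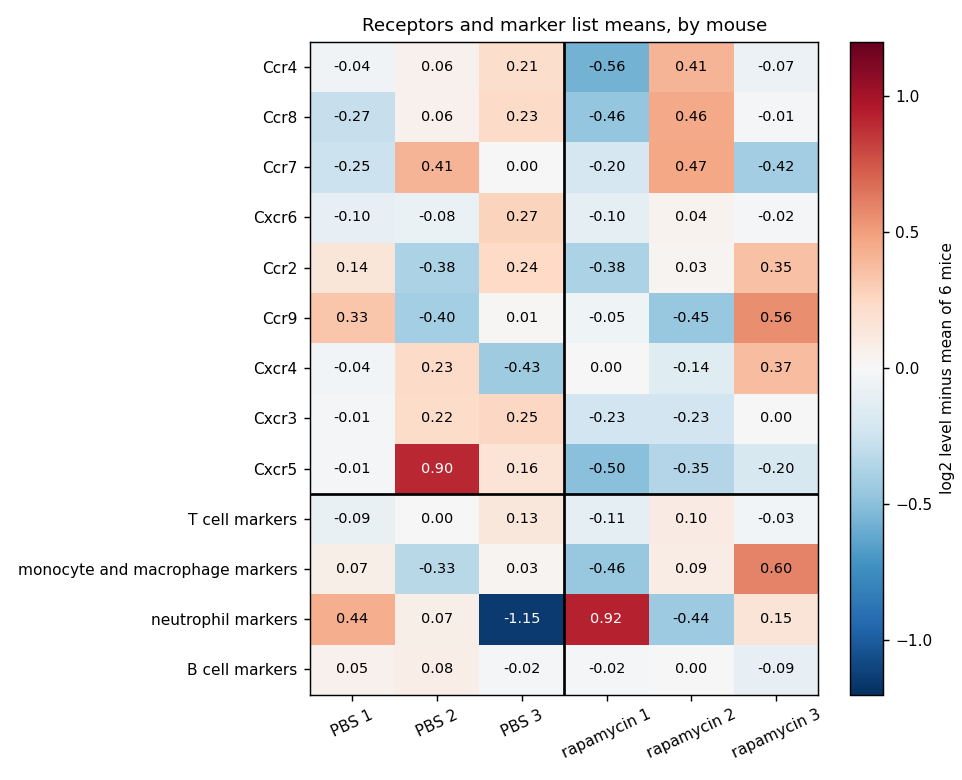
Log2 level of each receptor (upper 9 lines) and mean of each marker list (lower 4 lines) minus its mean over the 6 mice, 1 column per mouse. Ccr4 and Ccr8 share their low value in rapamycin replicate 1 and their high value in rapamycin replicate 2, the neutrophil markers show the reverse in those mice, and Cxcr5 stands out in PBS replicate 2.

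**Figure D5:**
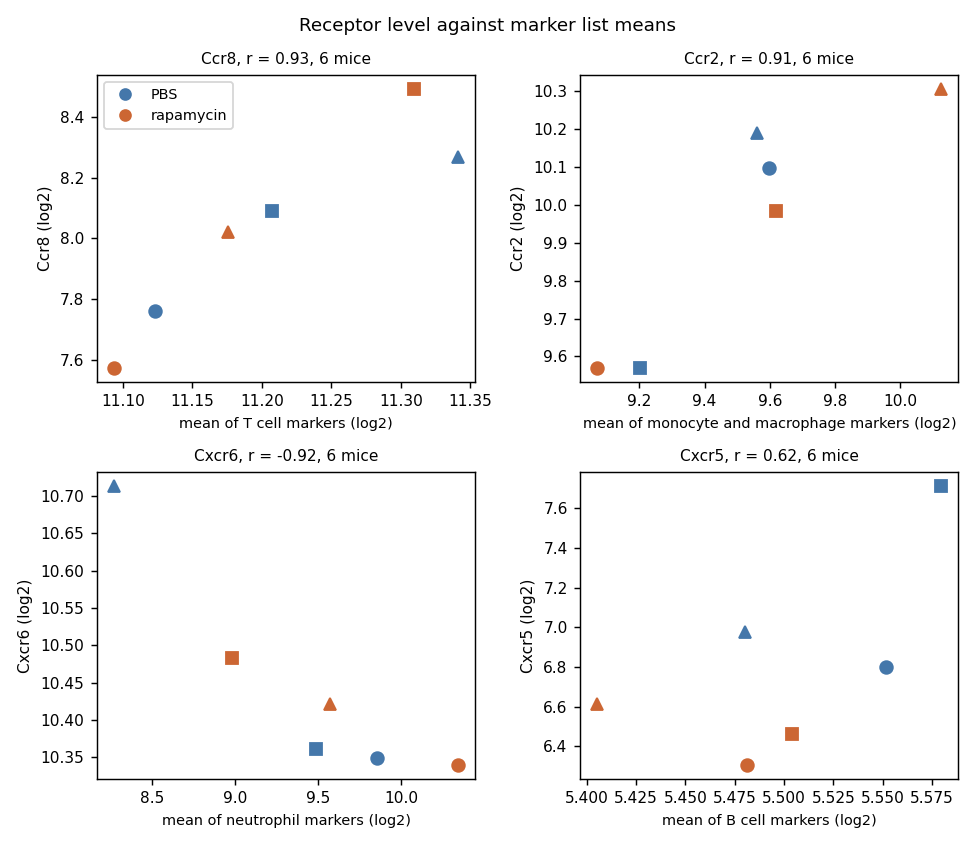
Level of 4 receptors (vertical) against the mean of a marker list (horizontal), both log2, 1 point per mouse, PBS blue and rapamycin orange, with circles, squares and triangles for replicates 1, 2 and 3. Mice with higher T cell markers had higher Ccr8 (r = 0.93), mice with higher monocyte and macrophage markers had higher Ccr2 (r = 0.91), mice with higher neutrophil markers had lower Cxcr6 (r = -0.92), and Cxcr5 is set against the B cell markers (r = 0.62).

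The windows before the Ccr4 and Ccr8 start sites are shown as those of the pair that moved together most closely. They lie at chr9:114496545-114496794, minus strand, and chr9:120091883-120092132, plus strand, both in RefSeq build GRCm38.p6, with CACCC or its reverse complement GGGTG in capitals.
Ccr4: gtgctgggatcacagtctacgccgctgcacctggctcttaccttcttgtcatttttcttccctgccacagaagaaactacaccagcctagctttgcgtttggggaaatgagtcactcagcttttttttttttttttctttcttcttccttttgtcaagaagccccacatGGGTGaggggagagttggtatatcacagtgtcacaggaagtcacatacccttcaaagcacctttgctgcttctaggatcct
Ccr8: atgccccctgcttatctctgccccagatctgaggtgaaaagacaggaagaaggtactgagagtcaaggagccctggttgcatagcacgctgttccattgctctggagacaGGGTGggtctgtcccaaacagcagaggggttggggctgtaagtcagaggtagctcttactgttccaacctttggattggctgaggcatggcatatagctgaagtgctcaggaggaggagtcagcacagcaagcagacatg
Each held 1 match to CACCC, as did the windows of Ccr9 and Cxcr4, so 4 of the 7 receptors with a RefSeq window had one, where 52.0% of all windows do. TCACACC and GTAAACA were in 0 of the 7. CANNTG was in 5 of the 7, against 66.2% of all windows. Of these 7 windows 5 lie on chromosome 9, where those of Ccr9, Cxcr6 and Ccr2 fall within 335 kb. Ccr9 and Cxcr6, whose windows are 39.3 kb apart, correlated at r = -0.07 over the 6 mice. That value was 0.59 over the 4 mice left without the 2 most extreme. Ccr2 stood at r = 0.65 with Ccr9 (0.71 over 4 mice) and at r = 0.51 with Cxcr6 (0.71 over 4 mice). These too are descriptions with no test.

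Ligands of the 9 receptors were measured in the same sorted cells, 15 of the 16 on the list, with 7 lower, 8 higher and a median difference of 0.03. None passed over all genes, and 2 had an unadjusted p under 0.05 in limma, a level that 4.67% of all genes reached. Ccl12, a ligand of Ccr2, measured 4.49, 4.56 and 4.40 with PBS and 4.33, 3.95 and 4.25 with rapamycin, below the array medians in every mouse (difference -0.31, and -0.19 without rapamycin replicate 2). Cxcl9 measured 9.18, 9.83 and 10.17 with PBS and 9.88, 10.48 and 10.64 with rapamycin (difference 0.61, SE 0.26), with overlapping groups. Without PBS replicate 1 the Cxcl9 difference was 0.34 (limma p before adjustment 0.172).

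Of 15 further chemokine receptors 14 were measured, 9 lower and 5 higher, with a median of -0.04 and 0 calls in limma. An unadjusted p under 0.05 was reached by 3 of the 14, against 4.67% of all genes, and groups did not overlap for 4 (3 lower), against 9.42%. Ackr2 and Ackr3 had the smallest p of that list, and both encode atypical receptors that take up chemokines without G protein signalling. Ackr2 differed by -0.29 (SE 0.11) and Ackr3 by 0.25 (SE 0.10), and both lay below the array medians on average, at 5.79 and 4.67.

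Signalling genes downstream of the receptors showed small differences, which were negative for 21 of the 27 genes measured. Their median was -0.04, and limma gave 0 calls and 3 genes at an unadjusted p under 0.05. Groups did not overlap for 6 of the 27, all of them lower. The 3 were lower as well. Over all genes, 55.3% were negative, 4.67% reached that p (3.07% on the lower side) and 9.42% did not overlap (6.28% in the lower direction). Rasgrp2, which activates the small GTPase Rap1 that switches on integrins, measured 10.82, 10.19 and 10.27 with PBS and 10.19, 9.64 and 9.78 with rapamycin (difference -0.56, SE 0.19, adjusted p = 0.982), which was -0.36 without PBS replicate 1. Pik3r5, the regulatory subunit of the PI3 kinase that G protein-coupled receptors engage, measured 11.25, 10.65 and 10.69 with PBS and 10.52, 10.36 and 10.50 with rapamycin, and its groups did not overlap. Its difference of -0.40 was -0.21 without PBS replicate 1. Gnai2, the inhibitory G protein alpha chain most used by these receptors, differed by -0.07 (SE 0.10), and Dock2, which drives migration through Rac, by -0.04 (SE 0.07).

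Genes that switch the receptors off were split, with 7 of 12 measured lower, a median of -0.04, 0 calls in limma and 1 at an unadjusted p under 0.05, beside 55.3% lower and 4.67% at that p over all genes. Rgs16, a regulator that speeds the shut-off of G proteins, measured 8.37, 9.12 and 9.31 with PBS and 9.21, 10.15 and 9.42 with rapamycin (difference 0.66, SE 0.29), and the difference was 0.38 without PBS replicate 1 or without rapamycin replicate 2. Rgs14, a regulator of the same family, measured 8.43 ± 0.06 and 8.27 ± 0.02, and its groups did not overlap, the only such gene of the 12, where 9.42% of all genes do not.

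For the 3 receptors with the smallest p, the genes most like them over the 6 mice were sought by Pearson correlation among 1379 genes at or above the median level with an SD of at least 0.2. Nearest to Cxcr5 were Ccdc141 (r = 0.99), Bmp7 (r = 0.97) and Scd2 (r = 0.96). Each was high in PBS replicate 2 and lower in all 3 rapamycin mice than in any PBS mouse. Cxcr5 has this same pattern, so the search favours genes that show it. Ccdc141 has more than 1 probe set, and with the mean of them its difference was -0.28 rather than -0.52. Nearest to Cxcr3 were Ephx1 (r = 0.96), Lclat1 (r = 0.94) and Oas1c (r = 0.94), and nearest to Cxcr4 were Sgms2 (r = 0.98), Hhat (r = 0.94) and Myo10 (r = 0.89). Only 6 of the 1379 genes exceeded r = 0.9 with Cxcr5, 9 with Cxcr3 and 2 with Cxcr4. These values come from a search over many genes in few mice and describe likeness alone.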

How the data were processed

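Splenic T cell RNA of 3 PBS and 3 rapamycin mice was measured on 1 array each, and groups and replicate numbers were taken from the sample titles. Expression Console (Affymetrix) and RMA made the values, per the submitters' processing notes. The log2 values the authors deposited are thus background-subtracted, normalized to a common distribution and summarised per probe set, which removes shifts shared by most genes and compresses values near background. Versions and the probe sets' genome build: not given in the sources used here.

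Of 35556 probe sets, 21789 named 1 gene, 1621 several and 12146 none. Each gene took its probe set with the highest mean, giving 19938 genes. Differences were fitted in R 4.3.3 with limma 3.58.1 (lmFit, eBayes, group as the only term), two-sided, with p-values adjusted over all genes (Benjamini-Hochberg) and 0.05 as the limit for a call. The number of arrays limits the precision. On simulated arrays, 99.2% of 200 genes changed by a factor of 2 were recovered among 19938 drawn independently, and 6.83% of calls were false. The simulated noise had limma's moderated variance, which is smaller than the observed variance for genes of wide spread. The 200 were drawn at random from all genes, whose median SE was 0.0955. The receptors had a median SE of 0.21, and the share recovered at that spread was not measured. Plots used matplotlib 3.10.9 under Python 3.11.15.

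Receptors and gene lists were chosen with earlier results of these data known. Genes named were the 9 receptors, 7 partner genes, the 2 genes with the smallest p of each pathway list, the marker genes Cd3e, Cd4 and Cd8a, the marker with the highest mean in each other list, and the 3 genes most like each of 3 receptors. Cd79b, Ccl1, Gnai2 and Dock2, and the list genes named only for their spread, were added after their values were seen. Genes of the lists whose probe sets do not name 1 symbol are not analysed here. Promoter windows come from RefSeq, build GRCm38.p6, which held 7 of the 9 receptors.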

Additional observations from a re-analysis of the deposited data

How the results depend on the processing

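Over 13 alternative settings Cxcr5 and Cxcr3 stayed negative, from -0.88 to -0.43 and from -0.39 to -0.25, and no receptor was called in any of them. Cxcr5 kept an unadjusted p under 0.05 in all 13 and Cxcr3 in 9 of 13; for Cxcr3 it lay between 0.0524 and 0.0646 without any one of rapamycin replicates 1 and 2 and PBS replicates 2 and 3. Ccr4 had an unadjusted p under 0.05 only without rapamycin replicate 2 (difference -0.39, limma p before adjustment 0.0387). The number of receptors lower with rapamycin was 5 with array weights or median centring and 4 to 7 when a mouse was left out. Their median difference lay between -0.24 and 0.07 when a mouse was left out, and was positive only without rapamycin replicate 1. Ccr8 turned positive with array weights (0.14) and with median centring (0.0057). When a mouse was left out, the sign of these differences was not fixed: Ccr2 -0.19 to 0.19, Ccr4 -0.39 to 0.10, Ccr7 -0.36 to 0.080, Ccr8 -0.24 to 0.22, Ccr9 -0.24 to 0.27, Cxcr4 -0.020 to 0.31 and Cxcr6 -0.12 to 0.059. Outside the receptors the same held for Tbx21 (-0.12 to 0.0073), Cd4 (-0.042 to 0.37), Cd8a (-0.049 to 0.11), Cd22 (-0.11 to 0.11), Gzma (-0.27 to 0.15) and Sgms2 (-0.025 to 0.22). The other 29 of 42 named genes kept their sign in every setting they were part of. Sizes were less stable, and leaving out 1 mouse shrank the following differences over 1.5 times. Among receptors and pathway genes, Cxcr5 went to -0.43, Cxcl9 0.34, Rgs16 0.38, Rasgrp2 -0.36, Pik3r5 -0.21 and Ccl12 -0.19. Partner genes were Foxp3 at -0.12, Itgb7 -0.10, Bcl6 0.073 and Gata3 -0.039. Marker and likeness genes were Cd3e at -0.0018, Lyz2 0.18, Lcn2 0.18, Itgax -0.21, Xbp1 0.054, Hhat 0.10 and Myo10 0.034. The cause of these shifts was not tested. The number of genes called was 0 to 7 when a mouse was left out, with 7 only without rapamycin replicate 1.

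Replicate numbers occur in both groups, so a replicate block was fitted: limma then called 0 genes (991 at an unadjusted p under 0.05), with Cxcr5 at an adjusted p of 0.751 and Cxcr3 at 0.855. Deviations from the group means correlated at 0.09, -0.19 and 0.19 between mice numbered 1, 2 and 3, so the numbers are not taken to pair the mice.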
